A study of Mus musculus with 12 samples.

Results

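The 4 CLK kinases (Clk1, Clk2, Clk3 and Clk4), the kinases Srpk1 and Srpk2 and the splicing activators Tra2a and Tra2b were followed in RAW264.7 cells, an established mouse macrophage line, in which the splicing factor SF3a1 was depleted. The 8 genes were taken by name from the gene count table of 38215 genes, and all 200 of their counting bins were taken from the bin tables of 354841 bins. Cells received a non-targeting control siRNA or an SF3a1 siRNA for 24 h and were then left untreated or stimulated with 20 ng/ml lipopolysaccharide (LPS), a bacterial ligand of the receptor TLR4, for 4 h. This gave 4 groups of 3 replicates, named by the siRNA (control or SF3a1) and by whether LPS was added. All cells were therefore transfected with an siRNA, and all are derived from 1 cell line, so p-values measure the spread between samples of that line, which may be technical in part. Polyadenylated RNA was sequenced in every library, and between 12746019 and 41091887 reads fell on genes. The bin counts covered 11 of the 12 libraries, and those of replicate 3 of control siRNA with LPS were not analysed here.

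The cells carried the labelled identity. Of 10 macrophage markers, 9 were above 1 CPM in every library. CPM is the count scaled to a common number of reads on the genes tested, with TMM scaling of the library sizes. Mrc1, the mannose receptor, was the exception, at 0 to 0.963 CPM. The summed macrophage markers were 9902 to 16517 CPM, led by Lyz2, the macrophage lysozyme. The summed markers of fibroblasts reached at most 0.316 CPM, those of B cells 0.363, those of T cells 0.112 and those of epithelium 0.211. The siRNA target was low in the libraries labelled as treated with it. Sf3a1 was at 173, 216 and 185 CPM in the 3 replicates of control siRNA without LPS and at 27.1, 27.5 and 32.1 CPM with SF3a1 siRNA. In cells given LPS it was at 150.0, 194 and 157 CPM with control siRNA and at 30.3, 26.7 and 45.0 CPM with SF3a1 siRNA. The remaining level was 15.1% of control without LPS and 20.4% with LPS.

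SR proteins are splicing factors with a domain rich in arginine and serine (RS domain), and the phosphorylation of that domain sets where they are in the cell and whether they can act. SRPK kinases phosphorylate SR proteins mainly in the cytoplasm, which allows their import into the nucleus, and CLK kinases phosphorylate them further in the nucleus and release them from nuclear speckles. Tra2a and Tra2b are RS domain proteins that bind exonic enhancers, and Tra2b also activates an exon of its own gene that holds premature stop codons (a poison exon). CLK transcripts are known for introns that stay in polyadenylated nuclear RNA (detained introns), which flank exon 4, an exon whose skipping removes the kinase activity. SF3a1 is a subunit of the SF3a complex of the U2 snRNP, which recognizes the branch site upstream of each 3′ splice site.

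Exon 4 of the 4 CLK genes is shown because it is the regulated exon between the introns described below. The sequences are from GENCODE vM21 transcripts on the mm10 (GRCm38) build, each written 5′ to 3′ on the gene's strand. Capitals mark the 39 of the 85 aligned bases that all 4 exons share when aligned from their 3′ ends. Every exon is coding and its length leaves a remainder of 1 on division by 3.
Clk1 exon 4, chr1:58420121-58420211, minus strand: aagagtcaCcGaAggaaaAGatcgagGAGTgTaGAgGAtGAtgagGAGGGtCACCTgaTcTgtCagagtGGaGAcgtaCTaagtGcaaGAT
Clk2 exon 4, chr3:89169618-89169702, plus strand: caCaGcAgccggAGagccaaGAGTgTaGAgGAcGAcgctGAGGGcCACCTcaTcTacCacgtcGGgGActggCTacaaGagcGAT
Clk3 exon 4, chr9:57758627-57758723, minus strand: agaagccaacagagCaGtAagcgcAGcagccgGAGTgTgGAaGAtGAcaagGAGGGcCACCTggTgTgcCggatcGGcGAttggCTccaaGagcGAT
Clk4 exon 4, chr11:51273078-51273168, plus strand: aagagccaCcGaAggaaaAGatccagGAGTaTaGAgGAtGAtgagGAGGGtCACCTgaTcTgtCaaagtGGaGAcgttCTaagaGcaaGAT
Clk1 and Clk4 share 85 of 91 bases (93.4%), so reads from this exon can be hard to tell apart between these 2 genes. Only reads placed at a single position were counted.

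The 3′ ends of 5 of the introns described below are shown because the U2 snRNP acts at this end. Each line gives the last 30 bases of an intron, with the terminal dinucleotide in capitals.
Clk1 intron 3: gtgctggtgccgcccacttgacgtgtccAG
Clk4 intron 3: gatcttggtgctgcccacttgccgttccAG
Clk2 intron 3: gctccgaccccccccaccccccgacagcAG
Clk2 intron 6: agacatccaacttcccctgtctctccccAG
Clk2 intron 7: tcaagcctgatctagccttctcccctgcAG
Of the 28 bases before the AG, 17 were pyrimidines in Clk1 intron 3, 19 in Clk4 intron 3, 20 in Clk2 intron 3, 21 in Clk2 intron 6 and 20 in Clk2 intron 7. The Tra2b poison exon, 276 nt at chr16:22258986-22259261 on the minus strand, is shown up to its first in-frame stop codon, in capitals.
Tra2b poison exon: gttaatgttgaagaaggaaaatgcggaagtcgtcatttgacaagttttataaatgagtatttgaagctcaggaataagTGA

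The levels of the 8 genes were compared first, per kilobase of each gene's reference transcript. The counts cover all annotated exon stretches, which exceed that transcript in Clk1 (8132 against 1796 nt), Clk4 (5797 against 1949) and Srpk1 (10703 against 4653). They also exceed it in Clk2 (5299 against 2128) and Tra2b (5383 against 3403), and equal it in Clk3, Srpk2 and Tra2a. The order of genes below may depend on this choice, which was not tested. In control siRNA without LPS, Tra2a stood highest at 73.3 ± 8.05 CPM per kb (SD, n = 3). Clk2 followed at 32.9 ± 3.96, Tra2b at 28.3 ± 2.12, Srpk1 at 27.6 ± 1.03, Clk3 at 26.9 ± 6.29 and Clk1 at 21.6 ± 2.39 CPM per kb. The replicates of each of these 5 genes overlapped those of its neighbor in that order, so the order of neighbors is not resolved. Clk2, Tra2b and Srpk1 each stood above Clk1 in every replicate, and Clk2 stood above Srpk1. Clk4 was lower at 12.6 ± 1.61 CPM per kb and Srpk2 lowest at 7.02 ± 1.70 CPM per kb, and neither overlapped its neighbor. With SF3a1 siRNA and LPS the order changed, with Clk4 at 27.9 ± 3.49 and Srpk1 at 10.3 ± 1.19 CPM per kb. A per-cell change in transcript number and a change in total RNA per cell cannot be told apart from these CPM values.

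**Figure D1:**
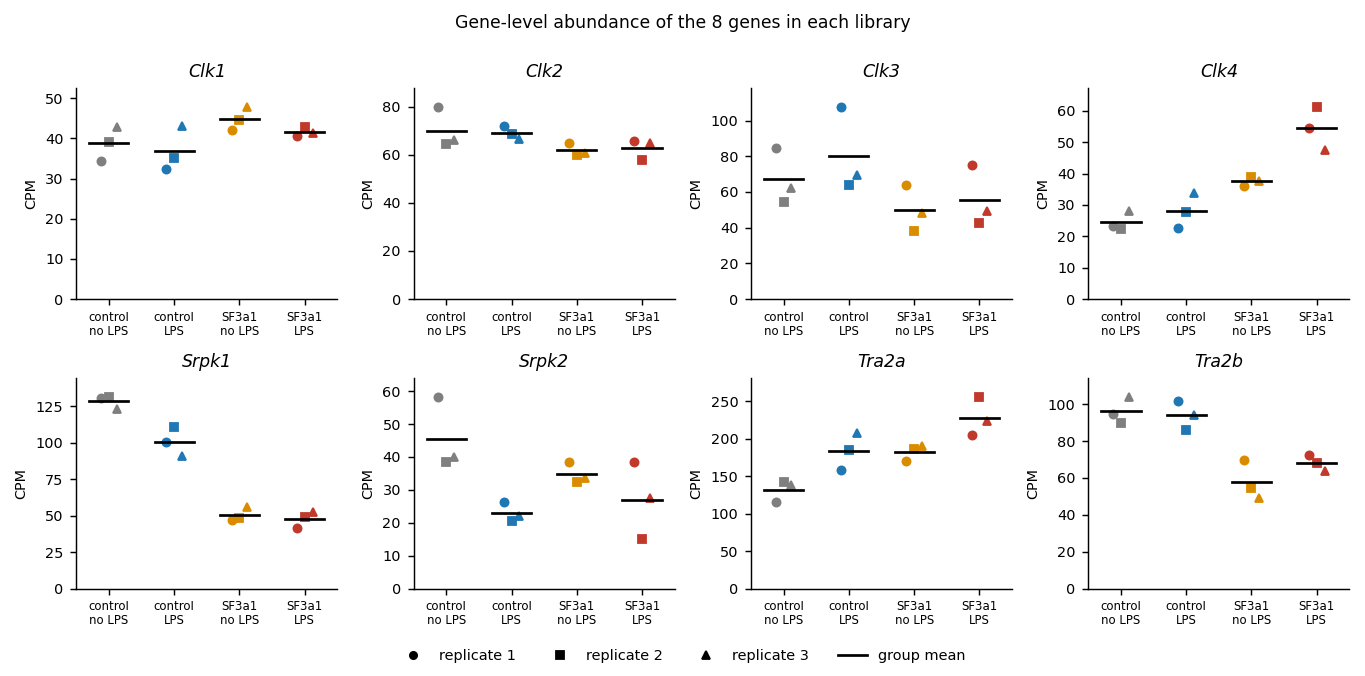
Abundance of each of the 8 genes in CPM (vertical axis, starting at 0) in the 4 groups, with 1 point per library, a symbol per replicate number and a bar at the group mean. Srpk1 and Tra2b were lower in every library with SF3a1 siRNA than in every library with control siRNA, and Clk4 was higher in every such library.

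SF3a1 depletion changed 4 of the 8 genes without LPS and 3 with LPS, in both directions. Srpk1 and Tra2b fell and Clk4 rose in both conditions, and Tra2a rose without LPS. In the edgeR quasi-likelihood test over 14983 genes, with Benjamini-Hochberg adjusted p of 0.1 or less as the threshold, 33.8% of all genes tested passed without LPS and 38.8% with LPS. The counts among these 8 genes are close to that background. With the replicate number as a block, 5 of the 8 passed in each condition, with Clk3 added in both and Tra2a with LPS. The background with the block is not given here. All 8 genes passed the filter on low counts.

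Srpk1, a cytoplasmic SR protein kinase, showed the largest change of the 8. It was at 131, 132 and 123 CPM in control siRNA without LPS and at 47.0, 48.7 and 56.0 CPM in SF3a1 siRNA without LPS. With LPS it was at 101, 111 and 90.8 CPM with control siRNA and at 41.9, 49.2 and 52.7 CPM with SF3a1 siRNA. All 6 libraries with SF3a1 siRNA were below all 6 with control siRNA. The log2 fold change was -1.35 (SE 0.138, adjusted p = 4.87e-05) without LPS and -1.07 (SE 0.137, adjusted p = 0.00014) with LPS, and both passed in each of the 12 fits that left out 1 library. Srpk2, the other SRPK kinase followed, was at 58.3, 38.3 and 40.0 CPM in control siRNA without LPS and at 38.6, 32.4 and 33.6 CPM with SF3a1 siRNA. The groups overlapped, and the log2 fold change of -0.39 (SE 0.274, adjusted p = 0.343) did not pass. With LPS its log2 fold change was 0.24 (SE 0.276, adjusted p = 0.56), with replicates of SF3a1 siRNA spread from 15.2 to 38.4 CPM. It passed (log2 0.53, adjusted p = 0.0952) when replicate 2 of SF3a1 siRNA with LPS was left out.

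Clk4, a nuclear CLK kinase, rose. It was at 23.4, 22.3 and 28.2 CPM in control siRNA without LPS and at 36.1, 39.0 and 37.7 CPM with SF3a1 siRNA. In cells given LPS it was at 22.7, 27.7 and 33.8 CPM with control siRNA and at 54.5, 61.1 and 47.5 CPM with SF3a1 siRNA. The groups did not overlap in either condition. The log2 fold change was 0.61 (SE 0.17, adjusted p = 0.0182) without LPS and 0.96 (SE 0.17, adjusted p = 0.00117) with LPS, and both passed in each of the 12 fits that left out 1 library. Counted over bins outside annotated introns only, which also leaves out replicate 3 of control siRNA with LPS for lack of bin counts here, the log2 fold changes were 0.69 without LPS and 1.23 with LPS. In gene counts without that library they were 0.61 and 1.11. Clk4 overlaps BC049762 on the opposite strand and the small RNA gene Gm25082 on its own strand. Whether counting used strand is not given in the sources used here, so reads of BC049762 and Clk4 that overlap may not be separated.

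Clk1, Clk2 and Clk3, the other CLK kinases, did not pass in either condition. Clk1 was at 34.3, 39.2 and 42.8 CPM in control siRNA without LPS and at 42.0, 44.5 and 47.8 CPM with SF3a1 siRNA, and the groups overlapped (log2 0.21, SE 0.143, adjusted p = 0.328). With LPS its log2 fold change was 0.17 (SE 0.143, adjusted p = 0.404). Over bins outside annotated introns it was 0.42 with LPS (adjusted p = 0.0666), past the threshold, in a fit that also lacked replicate 3 of control siRNA with LPS. In gene counts without that library it was 0.30 (adjusted p = 0.172). Clk2 was at 79.8, 64.4 and 66.1 CPM in control siRNA without LPS and at 64.9, 60.1 and 60.8 CPM with SF3a1 siRNA (log2 -0.18, SE 0.127, adjusted p = 0.342). With LPS its log2 fold change was -0.14 (SE 0.127, adjusted p = 0.464). The Clk2 groups overlapped without LPS and did not overlap with LPS. Over bins outside annotated introns its log2 fold change was -0.32 (adjusted p = 0.168) without LPS and -0.34 (adjusted p = 0.186) with LPS. That fit also lacked replicate 3 of control siRNA with LPS.

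Clk3 depended on how replicates were treated. It was at 84.8, 54.6 and 62.2 CPM in control siRNA without LPS and at 64.1, 38.0 and 48.1 CPM with SF3a1 siRNA. With LPS it was at 107, 63.7 and 69.8 CPM with control siRNA and at 75.0, 42.7 and 49.3 CPM with SF3a1 siRNA. Replicate 1 was the highest library in all 4 groups, and SF3a1 siRNA was lower than control siRNA within every replicate number. Without the replicate number in the model, the log2 fold changes of -0.42 (SE 0.275, adjusted p = 0.293) and -0.53 (SE 0.275, adjusted p = 0.17) did not pass, although the fall with LPS passed with no filter on low counts (adjusted p = 0.0676). With the replicate number as a block, adjusted p was 0.00544 without LPS and 0.00127 with LPS. Without replicate 1 of every group, which had been sequenced in 2 runs, it was 0.0552 and 0.022. Without replicate 1 of SF3a1 siRNA with LPS alone, the fall with LPS passed as well (adjusted p = 0.0557). Replicate 1 was also the highest in 4 of 4 groups for Clk2 and Srpk2 and in 3 of 4 for Tra2b, and its part in the results was not tested beyond those fits. Clk3 overlaps Edc3 on the opposite strand.

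The 2 Tra2 genes moved in opposite directions without LPS. Tra2b was at 94.9, 89.7 and 104 CPM in control siRNA without LPS and at 69.9, 54.4 and 49.2 CPM with SF3a1 siRNA. In cells given LPS it was at 102, 86.2 and 94.0 CPM with control siRNA and at 72.7, 68.4 and 63.6 CPM with SF3a1 siRNA. The groups did not overlap in either condition. The log2 fold change was -0.73 (SE 0.149, adjusted p = 0.00311) without LPS and -0.46 (SE 0.148, adjusted p = 0.0321) with LPS. The fall with LPS did not pass when replicate 3 of SF3a1 siRNA with LPS was left out (adjusted p = 0.103), with no filter on low counts (0.107) or when only bins outside introns were counted (0.127), a fit that also lacks replicate 3 of control siRNA with LPS. Gene counts without that library gave 0.0708.

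Tra2a was at 115, 142 and 139 CPM in control siRNA without LPS and at 170.0, 186 and 190.1 CPM with SF3a1 siRNA. With LPS it was at 158, 185 and 207 CPM with control siRNA and at 205, 256 and 224 CPM with SF3a1 siRNA. The groups overlapped with LPS and did not overlap without it. The log2 fold change was 0.47 (SE 0.146, adjusted p = 0.0316) without LPS and 0.32 (SE 0.145, adjusted p = 0.12) with LPS, where it passed with the replicate number as a block (adjusted p = 0.0252), with RLE scaling (0.0976), in DESeq2 (0.0715) and over bins outside introns in 11 libraries (0.0791). The rise with LPS also passed without replicate 1 of control siRNA without LPS (adjusted p = 0.0787), replicate 3 of control siRNA with LPS (0.0802) or replicate 1 of SF3a1 siRNA with LPS (0.095). The rise without LPS missed the threshold when replicate 3 of SF3a1 siRNA without LPS was left out (adjusted p = 0.102) and with no filter on low counts (0.119). The reference annotation has a short gene, Gm43980, on the strand opposite Tra2a.

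**Figure D2:**
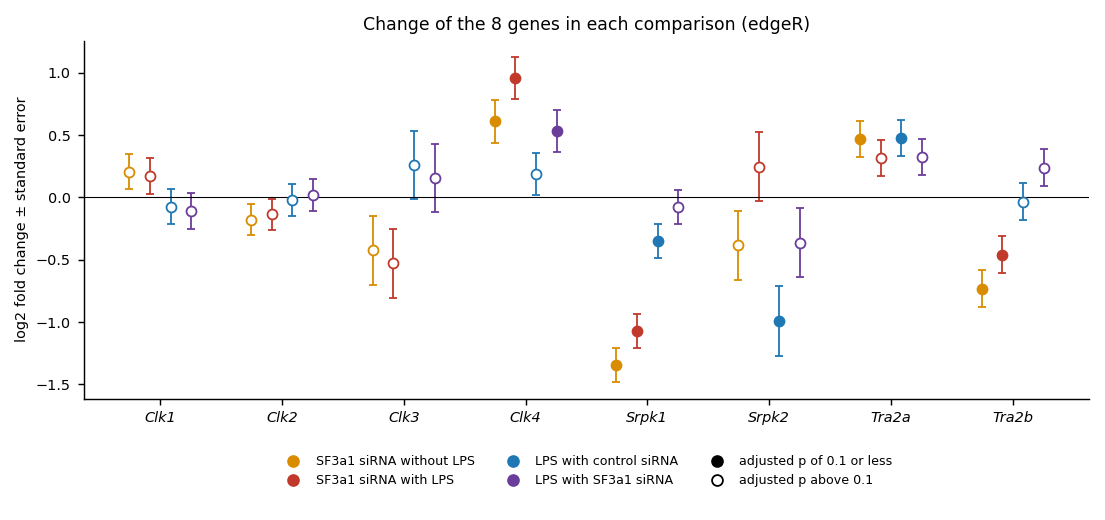
Log2 fold change with its standard error (vertical axis) of each of the 8 genes in the 4 comparisons, filled where the adjusted p from edgeR was 0.1 or less. Srpk1 and Tra2b lie below 0 and Clk4 above 0 with filled symbols for SF3a1 siRNA in both conditions, while Srpk2 is filled only for LPS with control siRNA.

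LPS itself changed 3 of the 8 genes in cells with control siRNA, against 32.1% of all genes tested. Srpk2 fell from 58.3, 38.3 and 40.0 CPM without LPS to 26.2, 20.4 and 21.99 CPM with LPS, and the groups did not overlap. Its log2 fold change was -0.99 (SE 0.277, adjusted p = 0.018), and it passed in each of the 12 fits that left out 1 library. Srpk2 overlaps Kmt2e on the opposite strand. Tra2a rose with LPS (log2 0.48, SE 0.146, adjusted p = 0.0282), with no overlap between the groups. That rise missed the threshold without replicate 3 of control siRNA with LPS (adjusted p = 0.11), with no filter on low counts (0.114), and over bins outside introns (0.114), a fit that lacks the same library. Srpk1 fell by 0.35 on the log2 scale (SE 0.135, adjusted p = 0.0756), also with no overlap. The fall of Srpk1 passed in only 6 of the 12 fits that left out 1 library. It missed the threshold without replicate 1, 2 or 3 of control siRNA without LPS (adjusted p = 0.191, 0.187 and 0.131), replicate 1 or 3 of control siRNA with LPS (0.123 and 0.22) or replicate 2 of SF3a1 siRNA without LPS (0.109). It also missed it with RLE scaling (0.101), with no filter on low counts (0.247) and without replicate 1 of every group (0.119). Clk3 passed only with the replicate block (log2 0.24, adjusted p = 0.086). Clk1, Clk2, Clk4 and Tra2b had log2 fold changes between -0.07 and 0.19.

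In cells with SF3a1 siRNA, LPS changed 1 of the 8 genes, against 10.7% of all genes tested. Clk4 was at 36.1, 39.0 and 37.7 CPM without LPS and at 54.5, 61.1 and 47.5 CPM with LPS, with no overlap. Its log2 fold change of 0.53 (SE 0.169, adjusted p = 0.0817) passed in only 3 of the 12 fits that left out 1 library, namely those without replicate 1 or 3 of control siRNA with LPS or replicate 3 of SF3a1 siRNA with LPS. In the other 9 the adjusted p lay between 0.113 and 0.256, without replicate 1 of every group it was 0.11, and with no filter on low counts it was 0.156. Tra2a did not overlap either, but passed only with the replicate block (log2 0.32, adjusted p = 0.0558 with the block and 0.241 without). The other 6 genes had log2 fold changes between -0.36 (Srpk2) and 0.24 (Tra2b), and none of them passed. The interaction of SF3a1 siRNA and LPS, which asks whether the effect of depletion differed with LPS, passed for 0 of the 8 genes, against 3.47% of all genes tested. The interaction differences lay between -0.15 (Tra2a) and 0.63 (Srpk2) on the log2 scale. None of the 8 had an unadjusted p under 0.05 there in edgeR, and DESeq2 and limma-voom also gave 0. The differences between conditions in the size of the Srpk1, Clk4 and Tra2b changes were therefore not shown.

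Bin counts were then used to ask where along each transcript the reads lay. A bin is a stretch of a gene bounded by annotated exon ends, and a change in its usage is its log2 fold change relative to the other bins of the gene, tested with edgeR's diffSpliceDGE. Of the 200 bins of the 8 genes, 163 passed the count filter. The bins of Clk3, Srpk2 and Tra2a were the exons of 1 transcript each, with no bin inside an intron. The 30 bins of Srpk1 could not be placed on the reference annotation, so they are given by number only. Reads that cover several bins are counted in each of them.

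SF3a1 depletion changed the usage of 4 of the 163 bins without LPS, against 0.626% of all 153624 bins tested, and of 1 with LPS, against 0.492%. The gene with most of them was Clk2, whose 3 bins all rose and lay inside introns. For comparison, 3.03% of all bins inside introns rose without LPS and 2.07% with LPS. LPS changed 0 of the 163 bins with either siRNA, and 0 had an interaction. In these 3 comparisons 5, 5 and 2 of the bins had an unadjusted p under 0.05 in edgeR, and 0 passed in limma-voom in each. Background was 0.0801% of all bins for LPS with control siRNA, 0.0254% for LPS with SF3a1 siRNA and 0 for the interaction.

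A bin in Clk2 intron 7 had the smallest adjusted p of the 163 bins. The bin is the last 242 nt of the intron, chr3:89173955-89174196, whose 3′ end is printed above. It is annotated as part of an exon inside the intron, not as a retained intron. Whether its reads come from intron retention was not tested. It received 0.0179%, 0.0453% and 0% of the Clk2 bin counts in control siRNA without LPS and 0.174%, 0.618% and 0.582% with SF3a1 siRNA. Those shares rest on 1, 1 and 0 reads against 5, 10 and 7, and the count of 0 allows a share of up to 0.119%. No library with control siRNA reached the level of the count filter. The bin was therefore tested only because of its level with SF3a1 siRNA, and the results below are conditional on that. The groups did not overlap. The usage change was 4.15 on the log2 scale (SE 0.809, adjusted p = 0.00637), and the ratio of pooled shares was 19.9, with an exact 95% interval from 4.90 to 175 that covers counting error only. The change passed with the replicate block (adjusted p = 0.0017) but not in limma-voom (adjusted p = 0.129) or without replicate 1 of control siRNA without LPS (adjusted p = 0.101). With LPS the bin received 0.0433% and 0.0711% with control siRNA and 0.378%, 0.694% and 0.286% with SF3a1 siRNA. These groups did not overlap either, and the usage change of 2.98 (SE 0.855, adjusted p = 0.342) did not pass.

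Clk2 intron 3, the intron upstream of exon 4, passed with LPS. Its bin covers 691 nt at chr3:89168924-89169614, nearly the whole intron. It received 0.953% and 1.07% of the Clk2 bin counts in control siRNA with LPS and 2.88%, 4.38% and 2.76% in SF3a1 siRNA with LPS. Without LPS the shares were 2.89%, 1.36% and 1.83% with control siRNA and 3.90%, 3.83% and 3.33% with SF3a1 siRNA. The groups did not overlap in either condition. The usage change was 1.72 (SE 0.399, adjusted p = 0.0689) with LPS and 0.82 (SE 0.323, adjusted p = 1) without. The change with LPS passed in 7 of the 11 fits that left out 1 library. It was lost without replicate 1 or 2 of control siRNA with LPS (adjusted p = 1 and 0.264), without replicate 2 or 3 of SF3a1 siRNA with LPS (0.431 and 0.111), and without replicate 1 of every group (0.133).

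A bin in Clk2 intron 12, the last intron, also gained share without LPS. This bin of 109 nt at chr3:89175972-89176080 is likewise annotated as part of an exon inside the intron, not as a retained intron. It received 0.108%, 0.589% and 0.238% with control siRNA and 0.801%, 1.05% and 1.66% with SF3a1 siRNA, without overlap. The usage change was 2.02 (SE 0.484, adjusted p = 0.0783). It passed in 6 of the 11 fits that left out 1 library. It was lost without replicate 1 or 3 of control siRNA without LPS (adjusted p = 0.928 and 0.45), replicate 2 or 3 of SF3a1 siRNA without LPS (0.205 and 0.69) or replicate 2 of SF3a1 siRNA with LPS (0.108), and without replicate 1 of every group (0.132). With LPS the bin passed only in limma-voom (adjusted p = 0.0682) and without replicate 2 of control siRNA with LPS (0.0584). The bin in Clk2 intron 6, chosen here after its values were seen, went from 0.197%, 0.136% and 0.199% to 0.557%, 0.742% and 1.25% without LPS. This bin too is annotated as part of an exon inside the intron, and it passed the count filter only through libraries with SF3a1 siRNA. Its usage change of 2.14 (SE 0.553, adjusted p = 0.157) passed with the replicate block (adjusted p = 0.0415) and without replicate 1 of every group (0.0464).

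Along Clk2 as a whole, most bins inside introns had a usage change above 0 and most on exons did not. The difference between intron and exon bins was not tested. Of the tested bins of 30 nt or more, all 8 inside introns had a usage change above 0 without LPS, from 0.41 to 4.15, and all 8 with LPS, from 0.15 to 2.98. Of the 16 on exons, 6 were above 0 without LPS and 5 with LPS. Their usage changes lay between -0.52 and 0.42, and with LPS they overlapped those inside introns. The 4 shorter bins inside introns, of which 2 were above 0 in each condition, lay between -0.75 and 0.86. Over all genes, 60.3% of tested bins of any length that lie in an intron of any annotated transcript were above 0 without LPS and 56.1% with LPS. By that definition the counts were 11 of 13 and 10 of 13 for Clk2, 7 of 10 and 3 of 10 for Clk1, and 6 of 9 in both conditions for Clk4. The share of Clk2 bin counts in introns was 6.27%, 7.16% and 6.36% in control siRNA without LPS and 10.3%, 13.7% and 14.4% with SF3a1 siRNA. With LPS it was 4.66% and 5.90% with control siRNA and 9.75%, 15.6% and 11.2% with SF3a1 siRNA. Every library with SF3a1 siRNA was above every library with control siRNA. Without LPS, reads outside genes were also a larger part of the libraries with SF3a1 siRNA (27.2%, 21.6% and 20.8%) than of those with control siRNA (18.2%, 19.6% and 17.8%), without overlap, and their part in the intron shares was not tested. The library with 27.2% had the lowest Clk2 intron share of the 3, but this library alone cannot show whether the shares are related. With LPS reads outside genes were 19.9%, 18.2% and 21.4% against 19.8%, 19.3% and 17.8%, with overlap. The log2 ratio of the group means was 0.95 without LPS and 1.21 with LPS. The exact two-sided permutation test gave p = 0.1 in both, the smallest value that 3 against 3 or 3 against 2 libraries allow (adjusted p = 0.4 and 0.267 over the 4 genes tested). Bins shorter than 30 nt, the shortest read kept, were left out of these shares, a limit chosen after the values were seen. With bins of every length the log2 ratios were 0.51 and 0.54.

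**Figure D3:**
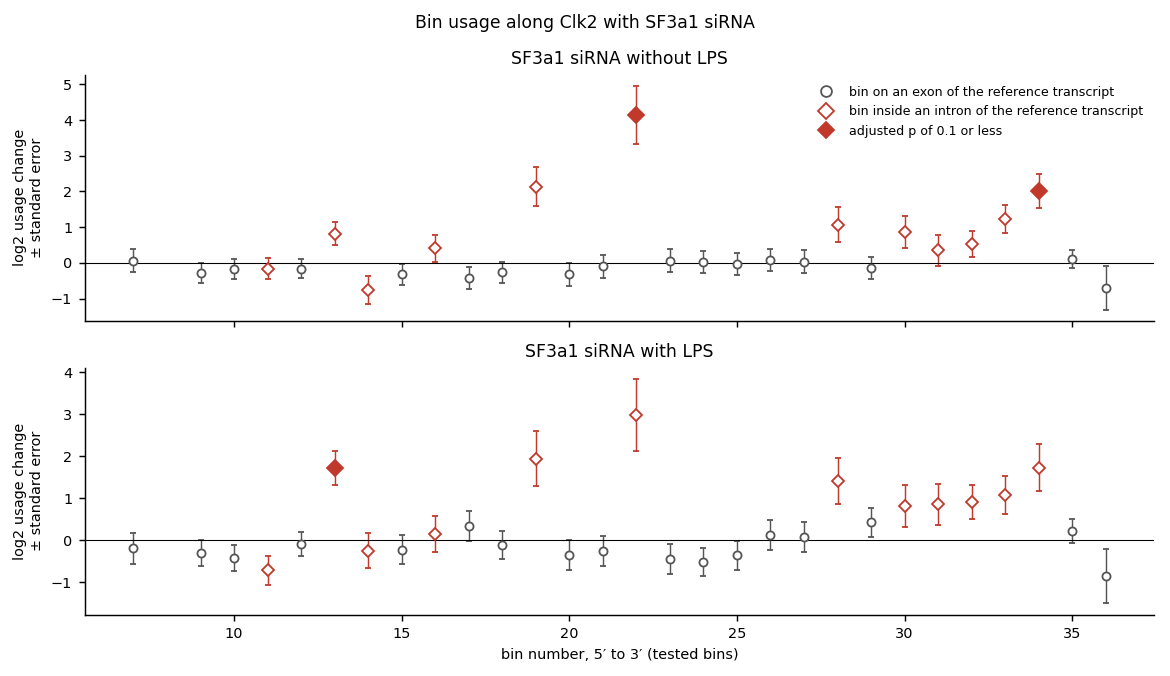
Usage change of each tested Clk2 bin on the log2 scale with its standard error (vertical axis) against bin number from 5′ to 3′, in the comparison of SF3a1 with control siRNA, with no LPS (top) and with LPS (bottom). Diamonds are bins inside introns and are filled where the adjusted p was 0.1 or less, circles are bins on exons, and the filled diamonds are bins 22 and 34 (top) and bin 13 (bottom). The diamonds below 0 are bins shorter than 30 nt.

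Clk1 intron 3 and Clk4 intron 3, the counterparts upstream of exon 4, had lower values with SF3a1 siRNA and did not pass. Clk1 intron 3 (871 nt, chr1:58420212-58421082) received 5.77%, 5.33% and 4.47% of the Clk1 bin counts in control siRNA without LPS and 1.98%, 2.96% and 3.12% with SF3a1 siRNA. With LPS it received 2.57% and 2.67% with control siRNA and 1.66%, 2.02% and 2.00% with SF3a1 siRNA. Control siRNA without LPS stood above the other 3 groups without overlap. The usage changes of -0.94 (SE 0.35) without LPS and -0.47 (SE 0.414) with LPS did not pass (adjusted p = 1 in both). The share of Clk1 bin counts in all its introns was 13.5 ± 2.25% (SD, n = 3) in control siRNA without LPS and 11.9 ± 1.31% (n = 3) with SF3a1 siRNA, and with LPS 11.9% (n = 2) and 9.76 ± 1.09% (n = 3), where the groups did not overlap. Exact permutation p was 0.3 without LPS and 0.2 with LPS.

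Clk4 intron 3 received 2.88%, 5.42% and 5.98% in control siRNA without LPS and 1.63%, 3.72% and 1.55% with SF3a1 siRNA. With LPS it received 4.46% and 2.06% with control siRNA and 0.415%, 1.51% and 2.29% with SF3a1 siRNA. The groups overlapped in both conditions. Of its 3 bins, the one of 713 nt had a usage change of -1.44 (SE 0.509, adjusted p = 0.567) with LPS, which passed in limma-voom (adjusted p = 0.0294) and with the replicate block (adjusted p = 0.0654). It was chosen here after its values were seen. The share in all Clk4 introns was 7.89 ± 1.55% and 5.33 ± 1.01% without LPS (n = 3 each), and 6.04 ± 0.776% (n = 2) and 3.05 ± 1.29% (n = 3) with LPS (exact permutation p = 0.2 in both). These groups overlapped without LPS and did not overlap with it (6.59% and 5.49% against 1.72%, 3.15% and 4.29%). The difference between Clk2 and the other 2 CLK genes in the direction of these shares was not tested.

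Intron 4 lies on the other side of exon 4, and the difference between it and intron 3 was not tested. Clk1 intron 4 received 1.41% and 1.099% in control siRNA with LPS and 0.4496%, 0.439% and 0.445% in SF3a1 siRNA with LPS, without overlap, and its means without LPS were 1.02% and 0.781%, with overlap. The share of Clk4 intron 4 had log2 ratios of -0.037 without LPS and 0.073 with LPS, and that of Clk2 intron 4 of 0.38 and 0.16, with overlap in each of these.

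**Figure D4:**
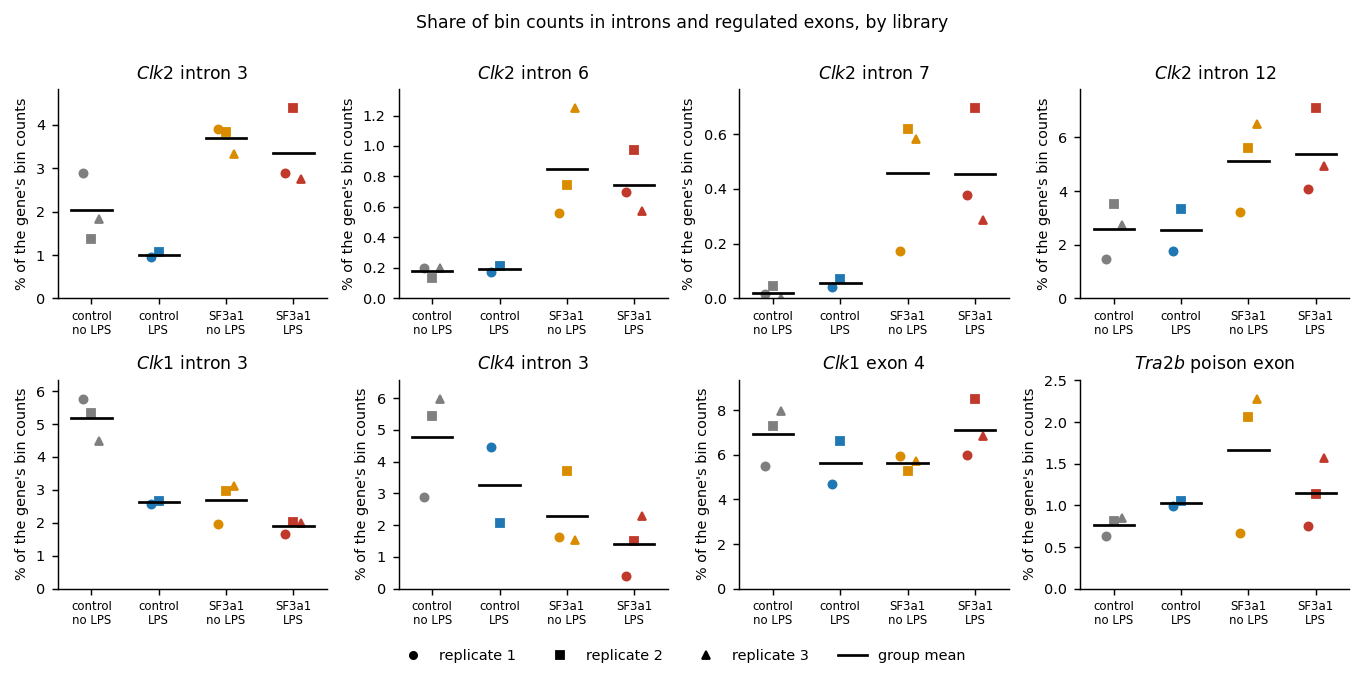
Percent of each gene's bin counts (vertical axis, starting at 0) in 6 introns (each summed over its bins of 30 nt or more), Clk1 exon 4 and the Tra2b poison exon, with 1 point per library in the 4 groups and a bar at the mean, and 2 libraries in control siRNA with LPS. The 4 Clk2 introns have higher means with SF3a1 siRNA in both conditions, and Clk1 intron 3 and Clk4 intron 3 have lower means.

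Exon 4, printed above, did not pass the test of usage in any of the 4 CLK genes. Its share of the gene's bin counts in Clk1 was 6.91 ± 1.27% (SD, n = 3) in control siRNA without LPS and 5.64 ± 0.342% with SF3a1 siRNA, and with LPS 5.64% (n = 2) and 7.10 ± 1.29%. The usage changes were -0.31 (SE 0.306) and 0.37 (SE 0.351), both with adjusted p = 1. In Clk2 they were -0.32 (SE 0.303) and -0.22 (SE 0.338), in Clk3 0.19 (SE 0.361) and 0.025 (SE 0.407), and in Clk4 -0.42 (SE 0.393) and -0.17 (SE 0.452), also with adjusted p = 1. Among the other exons and introns named for their share, Clk1 exon 7 (usage changes 0.25 and -0.27), Clk4 exon 2 (-0.39 and -0.58), Clk1 intron 12 (0.29 and 0.98) and a 131-nt stretch of Clk2 intron 12 (0.52 and 0.91) also had adjusted p = 1 without and with LPS. Over all bins tested, 0.626% passed without LPS and 0.492% with LPS. No share was computed over the whole retained introns or cassette exons of all genes. Of the 8 tested bins of the 8 genes that are annotated as a whole retained intron, 0 passed without LPS (2 with an unadjusted p under 0.05 in edgeR) and 1 rose with LPS, the bin of Clk2 intron 3. Of the 7 tested cassette exons, 1 fell without LPS and 0 passed with LPS (1 with an unadjusted p under 0.05). The fall was a bin of 59 nt in Clk4 intron 2 that lies in Gm25082 (chr11:51270435-51270689), a small RNA gene joined to Clk4 in the bin annotation. This bin passed the count filter only through control siRNA without LPS, where it was high, so its test is conditional on that. It went from 1.46%, 2.29% and 0.969% to 0.2996%, 0.177% and 0.118% (usage change -2.84, SE 0.712, adjusted p = 0.0408), and lost the threshold in limma-voom (adjusted p = 0.117). It did so too without replicate 1 of every group (adjusted p = 0.222) and without replicate 2 of control siRNA without LPS (adjusted p = 0.35) or replicate 2 or 3 of SF3a1 siRNA without LPS (0.288 and 0.302).

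The Tra2b poison exon received 0.630%, 0.809% and 0.846% of the Tra2b bin counts in control siRNA without LPS and 0.667%, 2.06% and 2.28% with SF3a1 siRNA. With LPS it received 0.995% and 1.06% with control siRNA and 0.756%, 1.14% and 1.56% with SF3a1 siRNA. Replicates 2 and 3 of SF3a1 siRNA without LPS were above all other libraries, and replicate 1 overlapped the controls. The usage change of 1.01 (SE 0.518, adjusted p = 1) without LPS and of 0.11 (SE 0.577, adjusted p = 1) with LPS did not pass. The share of Tra2b bin counts in introns was 1.05 ± 0.355% and 1.38 ± 0.54% without LPS (exact permutation p = 0.5, n = 3 each).

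Srpk1 had 1 changed bin. Bin 8, whose position was not resolved, received 0.0757%, 0.0778% and 0.176% of the Srpk1 bin counts in control siRNA without LPS and 0.564%, 1.24% and 0.595% with SF3a1 siRNA. These shares rest on 6, 3 and 7 reads against 10, 14 and 6, and the groups did not overlap. The bin passed the count filter only through libraries with SF3a1 siRNA, where it was high, so its test is conditional on that. The usage change was 2.86 (SE 0.615, adjusted p = 0.0243) and passed with the replicate block (adjusted p = 0.00342) and in limma-voom (adjusted p = 0.00693). The bin passed the count filter in only 4 of the 11 fits that left out 1 library, and in these the change was lost once, without replicate 2 of control siRNA without LPS (adjusted p = 0.23). With LPS the usage change of 1.58 (SE 0.715, adjusted p = 1) did not pass. Bin 16 of Srpk1, chosen here after its values were seen, had usage changes of -1.11 (SE 0.441, adjusted p = 1) without LPS and -1.46 (SE 0.475, adjusted p = 0.619) with LPS. It received 1.102% and 1.98% of the Srpk1 bin counts with control siRNA and 0.156%, 0.796% and 0.746% with SF3a1 siRNA in LPS-treated cells, without overlap, and passed there with the replicate block (adjusted p = 0.0486). Bin 21, also chosen after its values were seen, received 1.58% and 2.299% with control siRNA and 4.16%, 4.602% and 4.68% with SF3a1 siRNA in LPS-treated cells, without overlap. Its usage change of 1.22 (SE 0.363, adjusted p = 0.409) with LPS passed in limma-voom (adjusted p = 0.0491) and with the replicate block (adjusted p = 0.0459), and without LPS it was 0.028 (SE 0.325, adjusted p = 1).

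The substrates and partners of these kinases were taken as 3 lists. Over all genes tested, 13.7% rose and 20.1% fell without LPS, and 18.4% rose and 20.4% fell with LPS. Of 11 SR proteins, 10 were tested. With SF3a1 siRNA and no LPS, 5 fell and none rose, namely Srsf1, Srsf2, Srsf4, Srsf6 and Srsf10, with a list median of -0.32 on the log2 scale against -0.02 over all genes tested. Srsf2, which binds exonic enhancers, was at 396, 468 and 451 CPM with control siRNA and at 292, 351 and 308 CPM with SF3a1 siRNA (log2 -0.47, SE 0.147, adjusted p = 0.0329). Srsf10, an SR protein that represses splicing when dephosphorylated, was at 57.7, 56.6 and 63.2 CPM and then at 47.2, 39.6 and 46.9 CPM (log2 -0.41, SE 0.136, adjusted p = 0.0428). Neither pair of groups overlapped. The count fell to 1 without replicate 1 or 2 of control siRNA without LPS, to 0 without its replicate 3, to 2 without replicate 1 or 3 of SF3a1 siRNA without LPS, and to 1 without its replicate 2. It was 2 with no filter on low counts, 4 with RLE scaling, 6 in DESeq2 and 7 with the replicate number as a block. With LPS 0 of the 10 passed in edgeR, with 1 at an unadjusted p under 0.05 and 1 in DESeq2, and the list median was 0.00.

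Of 21 SR-related proteins, 8 passed without LPS (5 higher, 3 lower) and 10 with LPS (7 higher, 3 lower). The list medians were -0.01 and 0.15, against -0.02 and -0.04 over all genes tested. Ddx23, a helicase of the U5 snRNP that SRPK kinases phosphorylate, was at 244, 221 and 211 CPM with control siRNA and at 395, 377 and 398 CPM with SF3a1 siRNA without LPS (log2 0.79, SE 0.137, adjusted p = 0.00116). Rbm39, a U2AF-like coactivator, rose by 0.77 (SE 0.133, adjusted p = 0.00108) without LPS, and Luc7l, a U1 snRNP-associated protein, rose by 0.69 (SE 0.122, adjusted p = 0.00111) with LPS. Rsrc1, an RS domain protein, was at 35.7, 45.9 and 44.4 CPM with control siRNA and at 18.99, 22.2 and 20.3 CPM with SF3a1 siRNA without LPS (log2 -1.03, SE 0.183, adjusted p = 0.0013). Bclaf1, a RS-domain-containing RNA-processing factor, fell by 0.85 (SE 0.131, adjusted p = 0.000545) without LPS and by 0.82 (SE 0.131, adjusted p = 0.000566) with LPS. With control siRNA, LPS raised Luc7l (log2 0.31, adjusted p = 0.0859) and lowered Thrap3 (log2 -0.40, adjusted p = 0.0348), 2 of the 21, against 32.1% of all genes tested.

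The other RS domain kinases and phosphatases held the largest change of the 3 lists. Of 16 genes, 14 were tested, and 3 rose and none fell without LPS, while 6 rose and 1 fell with LPS. The list also includes the SR protein importer Tnpo3, and counts of kinases or phosphatases given here are counts over the whole list. The list medians were 0.16 and 0.32. Dyrk3, a kinase known to dissolve nuclear speckles and stress granules, was at 44.6, 46.5 and 48.7 CPM in control siRNA without LPS and at 150.1, 174 and 184 CPM with SF3a1 siRNA. In cells given LPS it was at 23.2, 30.6 and 25.1 CPM with control siRNA and at 174, 197 and 192 CPM with SF3a1 siRNA. The log2 fold change was 1.86 (SE 0.142, adjusted p = 1.21e-05) without LPS and 2.84 (SE 0.148, adjusted p = 1.65e-06) with LPS. Dyrk1b and Dyrk2, kinases of the same family, rose in both conditions, Dyrk1b by 1.32 (SE 0.354, adjusted p = 0.0149) without LPS and 1.25 (SE 0.355, adjusted p = 0.0177) with LPS. Cdk12, a kinase of the RNA polymerase II tail, fell by 0.46 (SE 0.182, adjusted p = 0.0752) with LPS. With control siRNA, LPS lowered Dyrk3 (log2 -0.83, SE 0.14, adjusted p = 0.000725) and Dyrk1a (log2 -0.37, SE 0.148, adjusted p = 0.0871), 2 of the 14, against the same 32.1% of all genes.

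**Figure D5:**
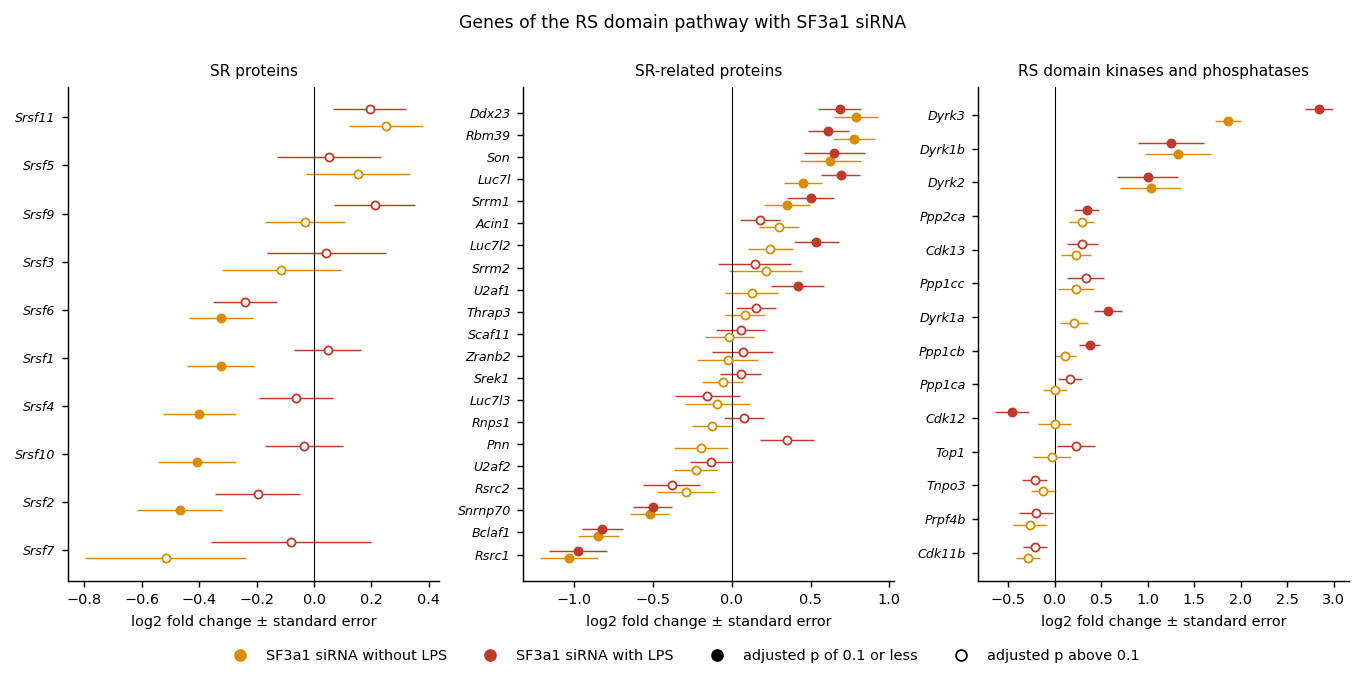
Log2 fold change with its standard error (horizontal axis) of the tested genes of the 3 lists after SF3a1 depletion in unstimulated and LPS-stimulated cells, filled where the adjusted p was 0.1 or less. The filled SR proteins lie below 0 and belong to SF3a1 siRNA without LPS, SR-related proteins lie on both sides, and Dyrk3 lies farthest to the right.

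The genes most like each member across the 12 libraries were found by Pearson's r of log2 CPM among the 9304 genes whose mean level was 10 CPM or more. The libraries share their group, depth and replicate number, and r is given as a description. For Srpk1 these were BC017158 (r = 0.987), Dtnbp1 (0.981) and Cdc23 (0.978). For Clk4 they were Mdh2 (0.975), Rbm18 (0.963) and Hnrnpc (0.963), and for Tra2b Tsen54 (0.972), Diablo (0.964) and Nono (0.9496). For Tra2a the first named gene was Ddx47 (0.970), after 2 genes whose identifiers had no symbol here. For Clk3 they were Renbp (0.965), Smg9 (0.954) and Tcf25 (0.953), and for Srpk2 Nr2c2 (0.952), Tbc1d16 (0.944) and Nf2 (0.943). For Clk1 they were Gnpda2 (0.953), Dynlt3 (0.933) and Hsd17b10 (0.93), and for Clk2 Zfp598 (0.941), Taok2 (0.921) and Hsf1 (0.919).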

How the data were processed

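RNA from RAW264.7 cells was sequenced on an Ion Proton as polyadenylated, single-end libraries. Per the labels and the study's methods, the authors kept reads of at least 30 nt, placed them on mm10 with GSNAP, kept reads with a single position and deposited raw counts per gene (HTSeq, intersection-nonempty) and per bin (DEXSeq's counting script, Ensembl annotation). The deposited counts were not normalized. Whether counting used strand is not given in the sources used here. Reads outside genes and ambiguous reads were left out of library sizes, and the former were 17.8% to 27.2% of reads. Replicate 1 of each group came from 2 sequencing runs.

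Gene counts of all 12 libraries were fitted with edgeR 4.0.16 in R 4.3.3 (TMM scaling, filterByExpr, quasi-likelihood test, 1 mean per group), and 14983 of 38215 genes were tested. Bin counts of 11 libraries were fitted with diffSpliceDGE over 153624 bins of 10609 units. P-values were adjusted by the Benjamini-Hochberg method over all features tested, with the threshold of 0.1 that the authors used. Bin positions were rebuilt from GENCODE vM21 and used where the number of bins matched. Shares in introns were compared by exact two-sided permutation tests over libraries. Counting intervals cover sampling of reads only, and 3 counts were taken as the limit that a count of 0 allows. Both fits were tested on simulated data.

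The 8 genes and the lists were chosen with earlier results of these data known. All 8 genes were named, with, per gene and SF3a1 comparison, up to 3 changed bins of smallest adjusted p, the 2 whole retained introns and 2 cassette exons of highest share, and per list the 2 largest rises and falls at a mean of at least 1 CPM. Samples with the same replicate number deviated together from their group means (r from 0.14 to 0.60, above 0.1 in 18 of 18 pairs). Pairs with different numbers had r from -0.52 to 0.35, above 0.1 in 10 of 36 pairs. The number was taken to pair samples, and a fit with it as a block was run. Whether the pattern reflects pairing or a difference of replicate 1 from the others was not tested. Other alternatives were RLE scaling, DESeq2 1.42.0, limma-voom (limma 3.58.1), no filter or another filter on low counts, leaving out each library, and, chosen after seeing the data, leaving out replicate 1 of every group, counting only bins outside introns, and counting bins of every length.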

Additional observations from a re-analysis of the deposited data

Results flagged for a closer look

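Dyrk3, a kinase of the RS domain kinase list, was the gene of the 3 lists and the 8 genes that passed the edgeR test of the interaction without a replicate block, so its response to SF3a1 siRNA differed between conditions. Its log2 fold change with SF3a1 siRNA was 1.86 without LPS and 2.84 with LPS, a difference of 0.98 (SE 0.196, edgeR adjusted p = 0.0265). It was at 44.6, 46.5 and 48.7 CPM in control siRNA without LPS and at 23.2, 30.6 and 25.1 CPM in control siRNA with LPS, while both groups with SF3a1 siRNA lay between 150.1 and 197 CPM. The interaction passed in edgeR with TMM or RLE scaling, DESeq2, limma-voom, with no filter on low counts, with the replicate block and without replicate 1 of every group. With the block, Pnn, an SR-related protein, passed as well (difference 0.55, adjusted p = 0.0447).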

How the results depend on the processing

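The falls of Srpk1 and the rises of Clk4 with SF3a1 siRNA in both conditions, the fall of Tra2b without LPS and the fall of Srpk2 with LPS in control cells kept their direction and their side of the threshold under every alternative run for them. The count over bins outside introns was not run for Srpk1, whose bins could not be placed. The changed Clk2 intron 7 and Srpk1 bins rest on at most 14 reads in a library, and the changed Clk2 intron 3 bin on 15 to 161. The part of depth in the bin results was not tested. For each value below that changed, the cause was not tested. Counts of genes and bins that passed under an alternative are given without the share of all genes or bins under it.

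With the replicate number as a block, 5 of the 8 genes passed for SF3a1 siRNA without LPS in place of 4. For SF3a1 siRNA with LPS 5 passed in place of 3. For LPS with SF3a1 siRNA 2 passed in place of 1, and Clk3 passed in addition for LPS with control siRNA. The calls gained with the block were Clk3 in 3 comparisons and Tra2a in 2. Among all alternatives run, Clk3 for LPS with control siRNA and Tra2a for LPS with SF3a1 siRNA passed with the block alone, while the other 3 calls also passed under alternatives without a block. Of the 163 bins, 4 in 3 genes passed with the block for SF3a1 siRNA with LPS in place of 1, and the usage change of the Tra2b poison exon with LPS turned to -0.18. In the lists, the block gave 1 SR protein, 6 SR-related proteins and 6 kinases or phosphatases for LPS with control siRNA. For SF3a1 siRNA without LPS it gave 7 SR proteins (5 without the block), 11 SR-related proteins (8) and 5 kinases or phosphatases (3). For SF3a1 siRNA with LPS these counts were 1 (0 without the block), 12 (10) and 8 (7). The shares of all genes and bins that passed with the block are not given here. Whether these gains exceed the general gain with the block was not tested. Among the named bins, those in Clk2 intron 6 without LPS, in Clk4 intron 3 with LPS, Srpk1 bin 16 with LPS (usage change -1.78, adjusted p = 0.0486) and Srpk1 bin 21 with LPS passed only there or in 1 further alternative, and the block changed no other call of a named gene or bin.

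With no filter on low counts, Clk3 passed for SF3a1 siRNA with LPS and Tra2b did not, 1 of the 8 genes passed for LPS with control siRNA and 0 for LPS with SF3a1 siRNA, with 2 SR proteins for SF3a1 siRNA without LPS, 0 SR-related proteins and 1 kinase for LPS with control siRNA, and 4 kinases for SF3a1 siRNA with LPS. Over bins outside introns, which could be counted for 7 of the 8 genes (not Srpk1) and in 11 libraries (not replicate 3 of control siRNA with LPS), 1 gene passed for LPS with control siRNA. Without that library alone, 1 of the 8 passed in gene counts. RLE scaling gave 4 SR-related proteins and 1 kinase for LPS with control siRNA, and DESeq2 gave 4 SR-related proteins there and 1 SR protein for SF3a1 siRNA with LPS. In limma-voom, 2 bins passed without LPS and 4 bins in 3 genes with LPS, and the usage change of Clk4 exon 4 with LPS was 0.024. Without replicate 1 of every group, 0 of the 8 genes passed for LPS with SF3a1 siRNA and 0 bins in 0 genes for SF3a1 siRNA with LPS, the usage changes without LPS were -0.0030 for Clk1 exon 7 and -0.31 for Srpk1 bin 21, and the intron share of Clk4 had a log2 ratio of -0.67 for LPS with control siRNA. With bins of every length, the intron share of Clk2 had log2 ratios of -0.078 for LPS with control siRNA and of 0.51 without and 0.54 with LPS for SF3a1 siRNA.

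Small changes turned sign. Clk2 for LPS with control siRNA was 0.0068 with RLE scaling, 0.0063 in DESeq2, 0.050 without replicate 1 of every group and 0.067 over bins outside introns on the log2 scale. Its interaction was -0.0056, -0.0050, -0.030 and -0.022 under the same alternatives, and that of Clk1 was 0.17 over bins outside introns.

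Over the fits that left out 1 library, log2 fold changes for LPS with control siRNA ranged from -0.20 to 0.016 for Clk1, from -0.076 to 0.11 for Clk2, from -0.010 to 0.49 for Clk3 and from -0.095 to 0.036 for Tra2b. For SF3a1 siRNA they ranged from -0.21 to 0.026 for Clk2 without LPS and from -0.097 to 0.53 for Srpk2 with LPS. For LPS with SF3a1 siRNA they ranged from -0.018 to 0.076 for Clk2, from -0.12 to 0.37 for Clk3 and from -0.15 to 0.011 for Srpk1, and interactions from -0.16 to 0.091 for Clk1, from -0.12 to 0.10 for Clk2 and from -0.38 to 0.16 for Clk3. The number of the 8 genes that passed ranged from 1 to 3 for LPS with control siRNA, from 2 to 5 for SF3a1 siRNA with LPS and from 0 to 1 for LPS with SF3a1 siRNA. SR proteins ranged from 0 to 5 for SF3a1 siRNA without LPS and from 0 to 1 with LPS, and SR-related proteins and kinases each from 1 to 3 for LPS with control siRNA. Changed bins ranged from 1 to 4 (in 1 to 3 genes) without LPS and from 0 to 1 (in 0 to 1 genes) with LPS. With LPS, usage changes ranged from -0.64 to 0.14 for Clk1 exon 7, from -0.58 to 0.17 for Clk2 exon 4, from -0.55 to 0.29 for Clk4 exon 4 and from -0.15 to 0.37 for the Tra2b poison exon, and without LPS from -0.14 to 0.25 for Srpk1 bin 21.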
